A study of Mus musculus with 16 samples.

Results

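A set of 80 genes was chosen by their RNA levels from the 9614 genes measured in mouse bone marrow-derived macrophages (BMDM). In these genes Dex lowered the level in every LPS-treated mouse, while 1 hr of LPS on its own left the level near that of untreated cells. Dex, or dexamethasone, is a synthetic glucocorticoid. LPS, or lipopolysaccharide, is a component of the bacterial cell wall. The score of a gene was the largest of its 6 same-mouse differences between LPS+Dex and LPS on the log2 scale, so that a low score means a lower level with Dex in all 6 mice. Genes needed a mean level of at least 1 log2 CPM (reads scaled to the same library size) under LPS and an LPS change between -0.5 and 0.5 in 3 mice. Symbols starting with Zfp or Slc were left out. Of the 8103 genes that met these conditions, the 80 with the lowest scores were taken, which is 0.987%.

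Because the members were selected on the LPS+Dex, LPS and untreated values of the same libraries, their Dex and LPS differences are given below as a description, with no test. The comparison of genotypes, the WT library that the rule did not use, and the gene and promoter sequences did not enter the choice.

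All mice were 8-week-old males on the C57BL/6 background, and both genotypes carried LysM-Cre, a recombinase expressed from a myeloid promoter. WT mice were LysM-Cre:NELF-B wt/wt and KO mice were LysM-Cre:NELF-B fl/fl, in which Nelfb, the gene of the NELF-B subunit, is deleted in myeloid cells. Cells were left untreated (2 WT and 2 KO mice), or were incubated for 1 hr with 10 ng/ml LPS or with 10 ng/ml LPS and 100 nM Dex (3 WT and 3 KO mice each). Within a genotype the animals carry the letters A, B and C here, values are listed in that order, and untreated libraries come from A and B. Each mouse gave its own libraries of polyA RNA, 16 in all.

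The glucocorticoid receptor is a nuclear receptor that enters the nucleus once it binds a glucocorticoid. It activates some genes through its own DNA elements and represses others, best known among them the inflammatory genes that NF-kB and AP-1 switch on downstream of the LPS receptor TLR4. NELF, the negative elongation factor, holds RNA polymerase II in a paused state shortly after it has started a transcript. The genes described here had lower levels with the glucocorticoid, while LPS moved them by at most 0.5 log2 in the 3 mice of the rule.

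Reads recovered from the values of the 9614 genes came to 25000000 to 49700000 in each of the 16 libraries. The WT A untreated library stood apart. Its correlation with the other 15 libraries across genes was 0.830 to 0.909, and the others correlated with each other at 0.924 to 0.993. The rule did not use that library, but comparisons of untreated cells between genotypes do. For these, the median difference of the members is also given without it. Other untreated differences include it unless stated. Nelfb was lower in the KO than in the WT by 2.02 on the log2 scale under LPS, by 2.00 under LPS+Dex and by 2.11 in untreated cells, with no overlap between genotypes (adjusted p of 0.105, 0.0889 and 0.889 from limma). All 10 macrophage markers were in the table, and the receptor gene Csf1r lay between 11.36 and 11.93 log2 CPM in the 16 libraries. Lyz2 was the lowest of the 10, between 4.30 and 6.33 log2 CPM. Of the 8 lymphocyte, 8 neutrophil and 6 dendritic cell markers only Cd4 (2.37 to 5.89 log2 CPM), S100a8 (2.45 to 5.38) and Ccr7 (-1.12 to 3.33) were in the table, and 5 of 8 fibroblast or endothelial markers, at most at 6.21 log2 CPM. Dex acted in these cells. Tsc22d3, Fkbp5 and Per1, direct targets of the receptor, rose by 3.81 ± 0.04, 2.98 ± 0.08 and 2.18 ± 0.05 log2 (standard error, limma with the mouse as a block, n = 6 mice). Of 25 classic glucocorticoid-induced genes in the table, 10 were called higher against 1.36% of all genes, 2 (Zfp36 and Bcl6) were called lower, and none of the 25 is among the 80. Genes that Dex raised could not be members, nor could Zfp36 by its symbol, so nothing is read from that absence.

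The promoters of the members were searched for the letters that factors of the LPS and glucocorticoid responses are known to bind. RefSeq promoters (GRCm38.p6), from 250 bases before to 50 bases after a start site, were found for 63 of the 80 genes, and 88 such windows were searched on both strands. An NF-kB-like site, GGANTTTCC, was found in 4 of the 63 genes (6.35%). The share was 1.71% of 7409 genes of the table with a promoter, and 9.22% of 141 genes that Dex lowered as far but that LPS had raised. Those 4 windows are shown because they are the members that share this sequence with the LPS-induced genes. They were picked after the values were seen. The match stands in capitals, each window is written along the strand of its gene, and Neurl3 lies on the minus strand of chr1:36273511-36273551, Pcyt1a on the plus strand of chr16:32431020-32431060, Slamf8 on the minus strand of chr1:172590519-172590547 and Tfe3 on the plus strand of chrX:7762660-7762700.
Neurl3: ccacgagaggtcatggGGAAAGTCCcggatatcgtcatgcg
Pcyt1a: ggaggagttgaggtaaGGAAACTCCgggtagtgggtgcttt
Slamf8: cctccttctgaacatgGGACTTTCCagca
Tfe3: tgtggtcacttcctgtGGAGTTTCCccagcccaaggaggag
In Neurl3 the match begins at -110 from the start site, where 0 is the start site itself, and in Pcyt1a, Slamf8 and Tfe3 it begins at 16, 37 and 15. The Pcyt1a match also lies in the window of another start site of that gene, from which its distance differs. Under LPS Neurl3 was above untreated by 0.45, 0.24 and 0.47 log2 in WT B, KO A and KO B. Slamf8 and Tfe3 were also above untreated in all 3 of these mice, and Pcyt1a was below untreated in all 3.

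The full palindromic glucocorticoid response element, a pair of half-sites with a 3-base gap, was found in 0 of the 63 genes (0.0270% of the table), and its half-site AGAACA in 6 (9.52% against 14.1%). The inverted repeat CTCCNGGAG was found in 1, Irf8 (1.59% against 2.32%). For AP-1, TGANTCA was found in 3 genes (4.76% against 6.13%), and for CREB, TGACGTCA in 2 (3.17% against 3.79%). The common promoter letters were near their share in the table, GGGCGG in 46 genes (73.0% against 71.2%), CCAAT in 26 (41.3% against 42.6%) and TATAAA in 5 (7.94% against 8.31%). Among the LPS-induced genes lowered as far, TATAAA was found in 17%, AP-1 letters in 10.6% and CREB letters in 8.51%. These searches cover only 300 bases a window and say nothing of the factors themselves. The promoters of Nr1d1 and Mylip, the first of the leading members with a RefSeq window, and that of Zfand2a, which holds the CREB letters, show the range. Nr1d1 (minus strand, chr11:98775328-98775627) matched none of the motifs. Mylip (plus strand, chr13:45389492-45389791) holds TATAAA at -32 and ATTGG, the reverse complement of CCAAT, at -190, -108 and -67. Zfand2a (minus strand, chr5:139484442-139484741) holds TGACGTCA at -125, the half-site letters TGTTCT at -198 and ATTGG at -141, -78 and -18. Capitals mark these matches, and GGGCGG is not marked.
Nr1d1: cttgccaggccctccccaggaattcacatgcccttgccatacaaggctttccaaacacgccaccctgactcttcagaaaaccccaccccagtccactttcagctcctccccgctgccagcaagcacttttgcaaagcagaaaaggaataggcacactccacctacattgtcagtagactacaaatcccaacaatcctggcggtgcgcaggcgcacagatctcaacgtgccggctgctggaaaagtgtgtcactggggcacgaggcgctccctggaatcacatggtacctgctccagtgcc
Mylip: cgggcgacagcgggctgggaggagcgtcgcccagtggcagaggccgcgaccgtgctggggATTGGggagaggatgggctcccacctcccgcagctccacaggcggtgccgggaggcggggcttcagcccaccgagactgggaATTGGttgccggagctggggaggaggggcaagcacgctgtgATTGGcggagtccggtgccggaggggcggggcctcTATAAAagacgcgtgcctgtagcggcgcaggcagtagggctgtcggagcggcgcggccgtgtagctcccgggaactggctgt
Zfand2a: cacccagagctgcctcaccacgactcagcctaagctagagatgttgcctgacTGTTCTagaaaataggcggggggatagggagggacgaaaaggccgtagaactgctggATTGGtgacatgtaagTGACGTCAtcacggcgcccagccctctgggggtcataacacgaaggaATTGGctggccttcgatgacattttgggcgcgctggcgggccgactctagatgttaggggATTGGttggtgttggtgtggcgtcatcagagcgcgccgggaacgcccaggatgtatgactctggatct

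The 80 genes form a small part of what Dex lowered. At the level of the last member, 326 genes had all 6 Dex differences at or under the limit. Of these, 180 had been raised by LPS above the window in each of the 3 mice, 10 had been lowered below it, 49 were mixed and 87 were in the window, 7 of them Zfp or Slc genes. As a share of all LPS-induced genes at this level the 180 are 46%, and the members are 0.987% of the genes that LPS left in the window. The limit itself is close. Rasgrp1 and Setd8, both at -0.142, and Lyl1 at -0.141 were the last genes taken, and Rbpj at -0.140, Arid3b at -0.139 and Mef2d at -0.138 the first left out.

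**Figure D1:**
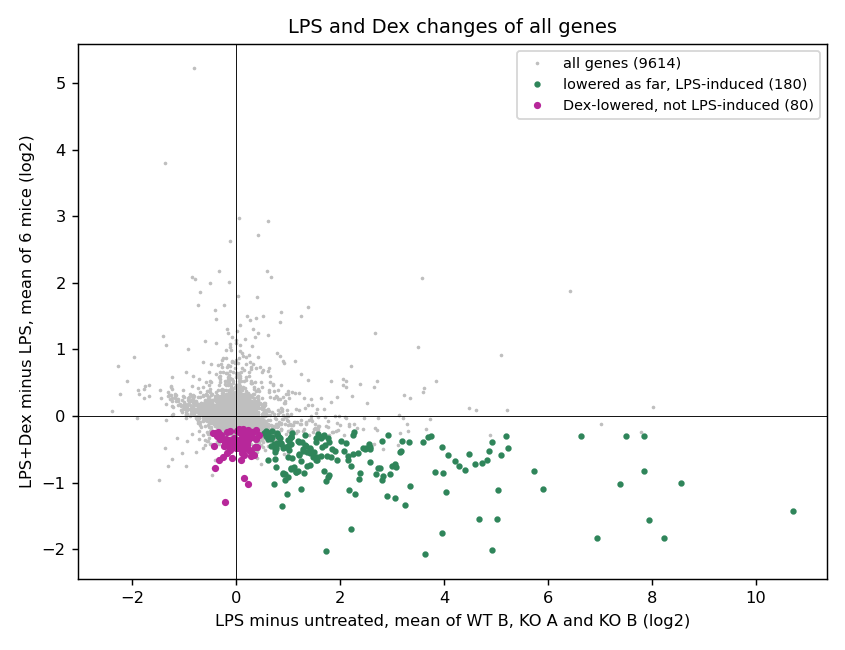
Each point is a gene. The horizontal axis is the mean LPS change over WT B, KO A and KO B and the vertical axis the mean Dex change over 6 mice, both in log2. The 80 members lie below 0 in a narrow band around 0 on the horizontal axis, where the rule placed them, and the 180 LPS-induced genes lowered as far extend to the right and further down.

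The Dex difference of most members was below 1.5-fold. In these bulk samples, fewer cells that express a gene and less RNA per cell cannot be told apart. The mean over 6 mice ranged from -1.28 to -0.19 log2 with a median of -0.36, against -0.01 for all genes and -0.56 for the 180 LPS-induced genes. With Dex the members kept 41.0% to 87.5% of their LPS level, with a median of 77.7%, and the LPS-induced genes a median of 67.9%. Of the members 2, Enc1 and Nr1d1, were lower by 2-fold or more, 10 by 1.5-fold or more and 39 by 1.3-fold or more. The SD of a member's Dex difference between mice had a median of 0.09 log2, as it had for all genes.

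Enc1, an actin-associated kelch protein, had the lowest score. It lies at chr13:97241105-97253034 (plus strand, GENCODE vM21 on GRCm38). Its level was 5.42, 5.18 and 4.92 log2 CPM in the WT under LPS and 4.07, 4.10 and 3.87 under LPS+Dex. In the KO it was 6.24, 5.61 and 6.17 under LPS and 4.79, 4.46 and 4.55 under LPS+Dex. Every LPS+Dex library was below every LPS library of its genotype. The mean difference was -1.28 ± 0.23 (SD, n = 6), so that 41.0% of the LPS level was left. In untreated cells the level was 4.96 and 5.49 in the WT and 6.25 and 5.91 in the KO, and the LPS+Dex level was below the untreated level in all 4 mice.

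Nr1d1 encodes REV-ERBα, a heme-binding nuclear receptor that represses transcription within the circadian clock, and lies at chr11:98767932-98775333 on the minus strand. In the WT its level was 3.26, 3.60 and 3.19 log2 CPM under LPS and 2.36, 2.53 and 2.13 under LPS+Dex. The KO mice had 3.95, 4.31 and 3.95 under LPS and 2.88, 3.21 and 2.96 under LPS+Dex. The 6 differences were alike, between -1.09 and -0.89, with a mean of -1.03 ± 0.07 (SD, n = 6). Bhlhe41, another repressor of the clock, was lower by 0.36 to 0.76 with a mean of -0.50 ± 0.18. Its WT levels under LPS were 6.72, 5.75 and 6.55 log2 CPM, and both B mice had lower levels than the other mice of their genotype.

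Mylip, a ubiquitin ligase that sends the LDL receptor to degradation, had WT levels of 6.77, 6.34 and 6.73 log2 CPM under LPS and 5.96, 5.33 and 5.85 under LPS+Dex. The KO levels were 7.20, 6.97 and 6.82 under LPS and 6.32, 5.94 and 5.87 under LPS+Dex. Its mean difference was -0.93 ± 0.09 (SD, n = 6), and the groups did not overlap in either genotype. Mylip was 1.41 log2 higher under LPS than untreated in WT A, whose untreated library the rule did not use, and 0.03, 0.30 and 0.13 higher in WT B, KO A and KO B.

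Arl4c, an Arf-like small GTPase, had a mean Dex difference of -0.66 ± 0.08 (SD, n = 6). Under LPS it stood at 7.09, 6.93 and 6.78 log2 CPM in the WT and at 7.31, 7.26 and 7.46 in the KO. Under LPS+Dex it stood at 6.52, 6.21 and 6.14 in the WT and at 6.68, 6.65 and 6.68 in the KO. LPS alone had left it below untreated in all 4 mice, by 0.30 to 0.77, so the LPS+Dex level lay further down. Mid1ip1, which promotes the activity of acetyl-CoA carboxylase, was lower with Dex by 0.41 to 0.64.

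**Figure D2:**
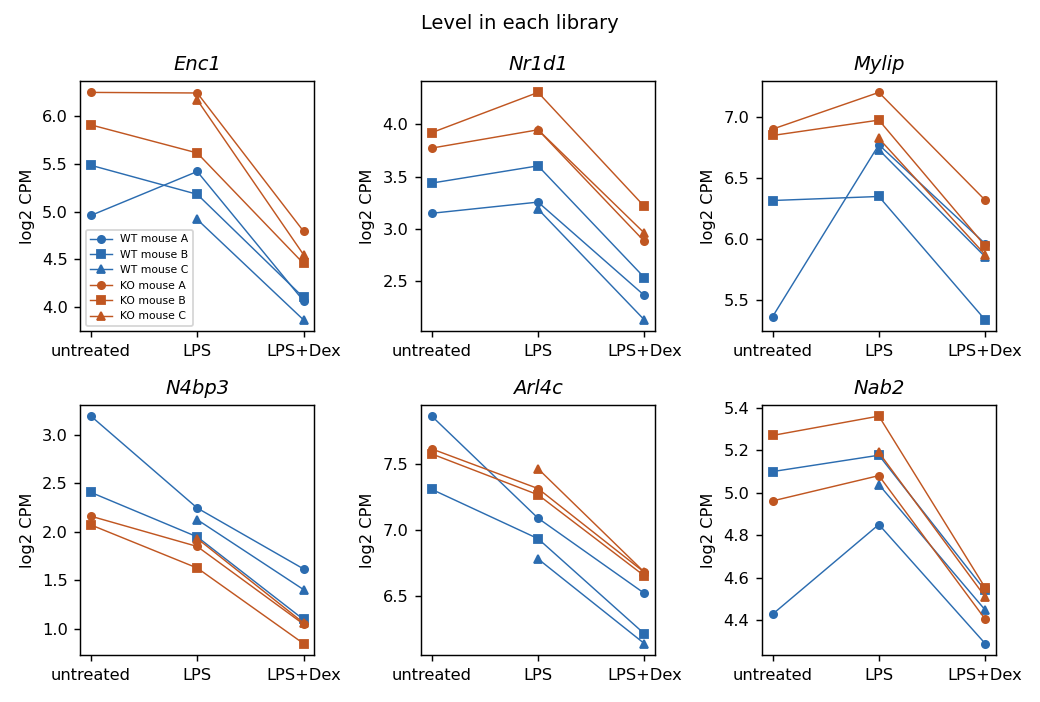
Level in log2 CPM of the 6 members with the lowest scores in untreated, LPS and LPS+Dex libraries, with 1 line for each mouse. In every mouse the LPS+Dex point lies below the LPS point. WT A has untreated levels of Enc1, Nr1d1, Mylip and Nab2 below and of N4bp3 and Arl4c above those of the other mice.

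N4bp3, whose product binds NEDD4 ligases, was the member with the lowest mean log2 level, 1.96 log2 CPM under LPS. In the WT it was 2.25, 1.95 and 2.13 under LPS and 1.62, 1.10 and 1.41 under LPS+Dex. In the KO it was 1.85, 1.63 and 1.93 under LPS and 1.05, 0.85 and 1.06 under LPS+Dex. The mean difference was -0.77 ± 0.09, and LPS alone had left it below untreated by 0.31 to 0.95 in all 4 mice. Nab2, a corepressor that binds the EGR transcription factors, was lower with Dex by 0.56 to 0.81. Its WT levels were 4.85, 5.18 and 5.04 log2 CPM under LPS and 4.29, 4.54 and 4.45 under LPS+Dex, and the KO levels were 5.08, 5.36 and 5.19 under LPS and 4.41, 4.55 and 4.51 under LPS+Dex. The ranges did not overlap within a genotype.

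The next members by score had mean Dex differences between -0.63 and -0.37. Ticam2, an adaptor that links TLR4 to TRIF signalling, was lower by 0.47 to 0.74 with a mean of -0.59 ± 0.10 (SD, n = 6). Its WT levels were 4.50, 4.98 and 4.96 log2 CPM under LPS and 3.87, 4.38 and 4.49 under LPS+Dex. Bach1, a heme-regulated repressor of antioxidant genes, was lower by 0.44 to 0.72 (mean -0.54 ± 0.11). Of Micall2 and Fam110a, both at lower levels under LPS than untreated, the mean differences were -0.51 ± 0.08 and -0.63 ± 0.13. Vps37b, a subunit of the ESCRT-I sorting complex, had -0.56 ± 0.19, and Rilpl2, which binds Rab GTPases, -0.51 ± 0.14. Plekho2, at 9.22 log2 CPM on average, varied least among these, with differences between -0.52 and -0.37.

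Fem1b and Fem1c, substrate receptors of CUL2 ubiquitin ligases, had mean Dex differences of -0.40 ± 0.11 and -0.50 ± 0.12 (SD, n = 6). Zfand2a, a stress-inducible partner of the proteasome, was lower by 0.36 to 0.53. Zc3h12d, a relative of the mRNA-degrading nuclease Regnase-1, was lower by 0.34 to 0.66. Sema4c, a membrane semaphorin, had a mean of -0.48 ± 0.11. Gpr137b-ps, annotated as a pseudogene, had -0.37 ± 0.07, and its near-copy Gpr137b, also a member, had -0.21 ± 0.06. The split of reads between these copies is uncertain.

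**Figure D3:**
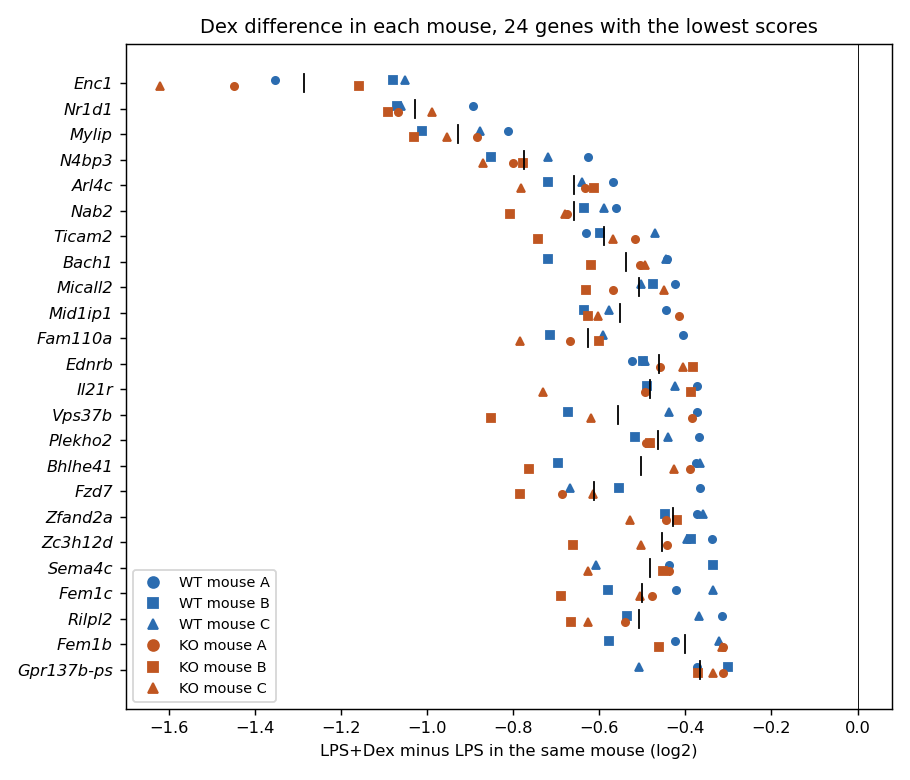
LPS+Dex minus LPS in log2 within each mouse for the 24 members with the lowest scores, ordered by score, with blue for WT, orange for KO, a symbol for each mouse and a vertical bar for the mean of 6. All points lie left of 0, as the rule required. Enc1, Nr1d1 and Mylip lie furthest to the left, with means of -1.28, -1.03 and -0.93.

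Receptors coupled to G proteins or grouped with them made up 6 members, among them Ednrb, Fzd7, Gpr137b-ps, S1pr1 and Gpr137b. They are 7.50% of the members, and the list holds 0.728% of the table. Ednrb, the endothelin B receptor, had WT levels of 6.24, 6.74 and 5.87 log2 CPM under LPS and 5.71, 6.24 and 5.37 under LPS+Dex. KO levels were 6.27, 6.57 and 5.93 under LPS and 5.81, 6.18 and 5.52 under LPS+Dex. The LPS and LPS+Dex ranges overlapped in both genotypes, and within each mouse the difference was between -0.53 and -0.38. Fzd7, a Wnt receptor, was lower by 0.36 to 0.79, and S1pr1, a receptor for sphingosine 1-phosphate, by 0.25 to 0.61. Ptgir, the prostacyclin receptor, is not on that list, and its mean difference was -0.46 ± 0.13.

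From the list of early-response and developmental transcription factors 6 genes were members, Nr1d1, Bach1, Bhlhe41, Irf8, Klf10 and Rara (7.50% of the members, with 1.74% of the table on the list). Irf8, which directs the development of monocytes and macrophages, was lower in each mouse by 0.25 to 0.35. Its WT levels were 5.82, 5.98 and 5.79 log2 CPM under LPS and 5.58, 5.67 and 5.54 under LPS+Dex, without overlap. Klf10, an early gene of the TGF-beta response, had a mean difference of -0.35 ± 0.14 and Rara, a retinoic acid receptor, -0.35 ± 0.13 (SD, n = 6). Bach1 and Irf8 are also 2 of the 33 macrophage lineage transcription factors in the table.

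Of the 80 members 3 were on the list of cytokines, chemokines and their receptors, Il21r, Tnfrsf1b and Cxcl16 (3.75% of the members, with 0.895% of the table on the list). None of the 20 NF-kB target cytokine genes in the table (0.208%) is a member. The rule leaves out genes that LPS moved by more than 0.5 log2 in its 3 mice, so nothing is read from this. Il21r, the receptor of interleukin 21, had a mean Dex difference of -0.48 ± 0.13, with WT levels of 5.54, 6.62 and 5.86 log2 CPM under LPS and 5.17, 6.13 and 5.43 under LPS+Dex. Both B mice had higher Il21r than the other mice of their genotype. Tnfrsf1b, a TNF receptor, and Cxcl16, a membrane-bound chemokine, had small and even differences, -0.24 ± 0.06 and -0.21 ± 0.04. Per kilobase of the longest transcript Tnfrsf1b was the highest member under LPS at 589 CPM, and Rasgrp1 (1.43 CPM) and N4bp3 (1.65 CPM) were the lowest.

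From the list of MAP kinase feedback and RAS regulators (1.32% of the table), 3 genes were members. Ptpn12, a tyrosine phosphatase, was lower with Dex by 0.16 to 0.29, and Mapk7, the kinase ERK5, by 0.14 to 0.38. Rasgrp1, an exchange factor of RAS, had the largest spread between mice of all members, -0.58 ± 0.34 (SD, n = 6). Its LPS level was 1.91, 3.64 and 2.00 log2 CPM in the WT and 2.02, 4.003 and 2.18 in KO mice. Its LPS+Dex level was 0.77, 3.50 and 1.42 in the WT and 1.59, 3.54 and 1.45 in the KO. Both B mice stood above the rest, with differences of -0.14 in WT B and -0.47 in KO B against -1.14 in WT A. Notch1, a receptor, was lower by 0.15 to 0.54. Pik3ap1, a signalling adaptor to PI 3-kinase, was lower by 0.18 to 0.34. Setd8, a histone H4 methyltransferase, came from the list of chromatin regulators (1.56% of the table) and Rnf24 from that of ubiquitin ligases (3.28%), which does not hold Mylip, Fem1b or Fem1c. No member came from the lists of the cell cycle or of NELF subunits.

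A few members outside these lists were chosen after their values were seen. Hexim1, an inhibitor of the elongation kinase P-TEFb, was lower with Dex in each mouse by 0.16 to 0.31. Cd180, a TLR-like receptor, was lower by 0.23 to 0.76, with the widest difference in KO B. Nod1, a sensor of bacterial cell wall peptides, was lower by 0.20 to 0.65, and Clec7a, listed with the suffix _1 and a receptor of fungal glucans, by 0.29 to 0.53. Fam46c had the largest mean difference outside the 24 leading genes, -0.60 ± 0.22. Tatdn2 had the most even difference of all members, between -0.33 and -0.27.

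The 2 genotypes are best set side by side, since the rule required a lower level in all 6 mice. The mean Dex difference had a median of -0.37 log2 over the 80 genes in the WT and -0.39 in the KO. It was lower in the WT than in the KO for 28 of 80 genes (35%), and for 52.7% of all genes, those that Dex raised included. The KO minus WT value of the mean difference ranged from -0.25 to 0.14 with a median of -0.04, against 0.01 for all genes. WT LPS+Dex levels were all below WT LPS levels for 30 of 80 members, and 2.96% of all genes had this pattern. In the KO it was 46 of 80, and 4.45% of all genes. Both counts use the contrast that chose the members, so nothing is read from them. Enc1 had a mean of -1.16 in the WT and -1.41 in the KO, and Rilpl2 -0.41 and -0.61, while Samd8 had -0.29 and -0.19. All 3 KO differences were below all 3 WT differences for 6 of 80 genes (5.27% of all genes), and the reverse held for 2 (7.69% of all genes). The lowest of the 6 differences was in a B mouse for 53 members (21 in WT B and 32 in KO B), in a C mouse for 15 and in an A mouse for 12. Over all genes WT B and KO B gave the lowest of the 6 differences for 17% and 17.4%.

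Without Dex most members moved little but often upward, within the window that the rule set. LPS levels were above untreated in all 3 mice of the rule for 45 genes (56.2%), below in all 3 for 22 (27.5%) and mixed for 13 (16.2%). Among the 8103 genes that met the level and the window these shares were 25.7%, 26.9% and 47.4%. The LPS and Dex differences share their LPS libraries, so chance error in an LPS library moves the pair in opposite directions. The highest LPS changes included Plekho2 with 0.32, 0.47 and 0.42 in WT B, KO A and KO B, Ednrb with 0.36, 0.38 and 0.40, and Ticam2 with 0.35, 0.35 and 0.36. The 22 genes below untreated include Enc1, N4bp3, Arl4c, Zc3h12d and Lyl1. For Zc3h12d the changes were -0.40, -0.46 and -0.38, and for Lyl1 -0.45, -0.46 and -0.41. The LPS+Dex level was below the untreated level in all 3 mice for 61 of 80 genes (76.2%), against 27.3% of all genes. By mouse it was below for 74 genes in WT B, 70 in KO A and 63 in KO B. The rule set the Dex and the LPS differences of these 3 mice, which add up to this one, so nothing is read from these counts.

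WT A, whose untreated library the rule did not use, gave a different picture of the same genes. In this mouse 36 of 80 members (45.0%) were in the window, 33 were above it and 11 below it, and 41.3% of all genes were in the window. The members ranged from -1.11 to 2.41 log2. LPS+Dex was below untreated for 40 of the 80 (48.0% of all genes). The 4 highest LPS changes in WT A were in Rasgrp1 (2.41), Lancl3 (2.15), Notch1 (2.10) and Lima1 (2.06), and in WT B the same genes had -0.24, 0.03, 0.09 and 0.15. The lowest was Fam110a at -1.11, with -0.07 in WT B. For 37 of the 45 genes above untreated in all 3 mice of the rule, and for 7 of the 22 below, LPS was above untreated in WT A too. Among all genes that met the level and the window, it was 1508 of 2083 and 843 of 2182. Since that library stood apart across all genes, these values cannot be told apart from a difference of the library itself.

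**Figure D4:**
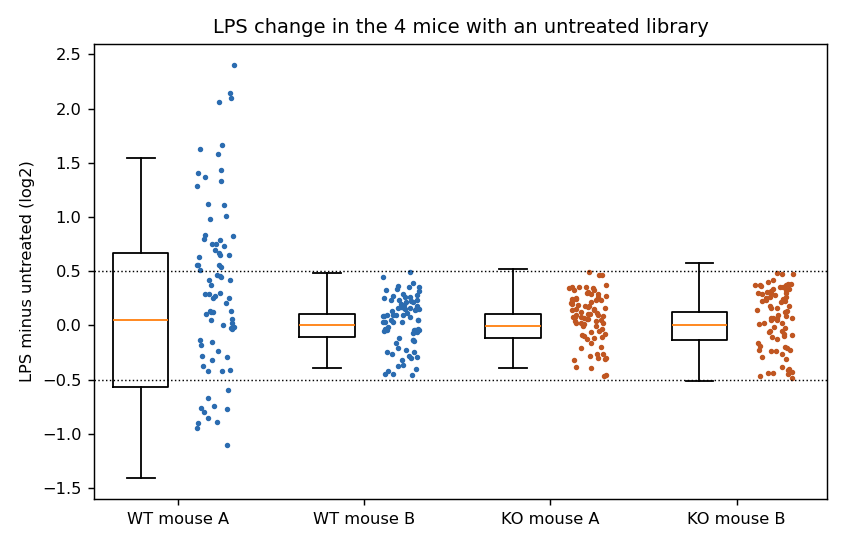
LPS minus untreated in log2 for the 4 mice with an untreated library. Boxes show the quartiles and median of all 9614 genes with whiskers at the 5th and 95th percentiles, points are the 80 members and dotted lines mark the window of -0.5 to 0.5. In WT B, KO A and KO B all points are inside, as the rule required, and in WT A the members spread from -1.11 to 2.41 and the box of all genes is wide as well.

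Whether loss of NELF-B changed the level of these genes was asked within each treatment, in a test that the rule did not use. No member passed an FDR under 0.05 with over 1.5-fold (limma). The count was 0 of 80 under LPS, 0 under LPS+Dex and 0 in untreated cells, with 0% of all 9614 genes in each. Nelfb itself, the deleted gene, was not called either (adjusted p of 0.105, 0.0889 and 0.889 from limma). The paper, with edgeR, reported differing genes between genotypes under LPS+Dex. A count of 0 in this fit therefore does not show that the members were unchanged. At an unadjusted p under 0.05 there were 6 members under LPS, all higher in the KO, beside 8.44% of all genes. Under LPS+Dex there were 5, all higher in the KO, beside 11.3%. In untreated cells there were 2, Enc1 and Mylip, beside 0.385%. The members' share was 7.50% under LPS, 6.25% under LPS+Dex and 2.50% untreated, close to or under that of all genes under LPS and LPS+Dex. These counts moved with single libraries. Under LPS there were 12 without WT B (15% of the members, 11.6% of all genes), 3 without KO A (3.75% and 4.94%) and 10 without KO B (12.5% and 10.3%). Under LPS+Dex there were 13 without WT B (16.2% and 14.5%) and 8 without WT A (10% and 10.9%), so that the members' share moved with that of all genes. With mice of the same letter as a batch block there were 20 in each treatment, 12 and 10 of them higher in the KO, beside 19.1% and 23.8% of all genes. WT and KO libraries did not overlap for 8 members under LPS (13.7% of all genes), 7 under LPS+Dex (17.8%) and 17 in untreated cells (29.4%). Of these members 6, 6 and 14 were higher in the KO, and of all genes without overlap 568 of 1320, 859 of 1708 and 1507 of 2830. With voom in limma on recovered reads, 0 members were called in each treatment, beside 1, 3 and 0 of all genes. Of the members 5, 5 and 2 (6.25%, 6.25% and 2.50%) had an unadjusted p under 0.05, beside 8.71%, 11.3% and 0.416% of all genes. Without WT A the median KO minus WT difference of the members in untreated cells was -0.03, against 0.17 with it. For all genes it was 0.01 and 0.02. Without WT B, which leaves WT A as the lone WT library, 34 members were called, beside 3905 of all 9614 genes, and that count follows the library that stands apart.

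Enc1 and Nr1d1 had the largest KO minus WT differences of the members under LPS and under LPS+Dex. Enc1 was above the WT by 0.84 ± 0.20 log2 under LPS (standard error, n = 3 and 3), with an adjusted p of 0.254 from limma, and by 0.59 ± 0.12 under LPS+Dex, with an adjusted p of 0.186 from limma. All 3 KO libraries were above all 3 WT libraries in each treatment. In untreated KO cells Enc1 was 0.86 ± 0.32 higher, and 0.59 higher without the WT A library. Between mice of the same letter the LPS difference was 0.82, 0.43 and 1.25 for A, B and C. Nr1d1 was higher in the KO by 0.72 ± 0.16 under LPS and 0.68 ± 0.17 under LPS+Dex, with adjusted p of 0.254 and 0.204 from limma. Its LPS differences were even, 0.69, 0.70 and 0.76 for A, B and C. With mice of the same letter as a batch block the adjusted p of Nr1d1 was 0.0678 and 0.0699. None of these passed the threshold.

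Klf10, Arl4c and N4bp3 were the other members whose genotypes did not overlap under both LPS and LPS+Dex. The share of all genes with this pattern was not counted. The LPS and LPS+Dex libraries come from the same mice, so they are not separate observations. Klf10 was higher in the KO by 0.47 ± 0.16 and 0.38 ± 0.13, and Arl4c by 0.41 ± 0.11 and 0.38 ± 0.11. N4bp3 was lower in the KO, by 0.30 ± 0.19 and 0.39 ± 0.26. Under LPS alone the non-overlapping members also included Mylip (0.38 ± 0.15) and Rilpl2 (0.27 ± 0.11). Under LPS+Dex alone they included Spen (0.23 ± 0.09) and Nt5dc3 (0.16 ± 0.08).

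**Figure D5:**
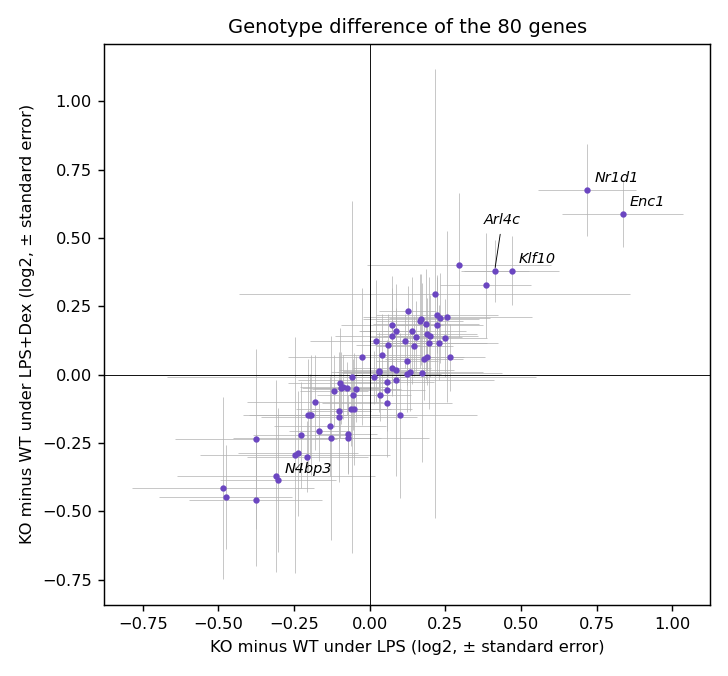
KO minus WT in log2 under LPS (horizontal) and LPS+Dex (vertical) for the 80 members, with standard errors from limma. Nr1d1 and Enc1 stand apart at upper right, Klf10 and Arl4c follow, and N4bp3 is the named gene below 0 on both axes, while most members lie near 0 with errors that cross it.

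The structure of the genes was compared as a description. Their median length was 25.6 kb, against 13.4 kb for the 180 LPS-induced genes and 24.5 kb for all genes. The longest transcript had a median of 6 exons, against 5 and 8. The 3′ untranslated region had a median of 1.62 kb, against 1.37 and 1.25 kb. The AU-rich nonamer TTATTTATT, a mark of unstable mRNA, was found in the 3′ untranslated region of 8 of 79 members (10.1%), against 16.3% of the LPS-induced genes and 8.19% of all genes. Enc1, Nab2, Zfand2a, Notch1, Hk2, Themis2, Nt5dc3 and B4galt6 carry it. The members were spread over 19 chromosomes, with at most 7 on any of them.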

How the data were processed

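PolyA RNA of 16 BMDM libraries was sequenced as 50 bp pairs. Per the paper's methods and the labels, the authors aligned reads to mm10 (CLC Bio Genomic Workbench), took exon reads with a unique position for each gene and applied a weighted trimmed mean scaling in edgeR. CASAVA 1.8 and FastQC are also named in the processing notes. The deposited values are log2 CPM for 9614 genes. The deposited p-values and FDR values of the authors' own comparisons were not used. Whole reads were recovered from the low values (100% of values under 3 CPM whole within 0.1 read). The recovered depth over these genes, 25000000 to 49700000 reads, limits precision by counting error only.

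The members and gene lists were chosen with earlier results of these data known. Genotypes were compared within each treatment by lmFit and eBayes (trend) on the deposited log2 CPM in limma 3.58.1, R 4.3.3, over all 9614 genes with Benjamini-Hochberg adjustment (FDR under 0.05, over 1.5-fold), in place of a count test, because the unit is log2. The Dex effect on classic targets was fitted with the mouse as a block. Python 3.11.15, numpy 2.4.6, pandas 2.3.3 and matplotlib 3.10.9 gave the rest. The fits were also run on simulated data with known changes. That run does not show that the untreated comparison of 2 against 2 mice can find a change. Mouse numbers in the labels pair the libraries, and the deviations of LPS and LPS+Dex libraries of an animal from their group means correlated at 0.78 to 0.94. The untreated label of WT B and the labels of KO B share a string that resembles a date, though they do not call it one. The LPS and LPS+Dex labels of WT B lack it. Labels of both C mice carry a sample number of the same form. KO A has another string like a date and WT A has none, so A only holds the remaining mice. The labels do not name the letters as batches. Each mouse is a separate animal.

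Gene structure came from GENCODE vM21, promoters from RefSeq (GRCm38.p6, 63 of 80 genes). The 24 members with the lowest scores, those at the limit, members of fixed lists, members not overlapping between genotypes in both LPS and LPS+Dex, those with the extreme levels and spread, and Nelfb, Tsc22d3, Fkbp5 and Per1 are named by rule, and a few named items are not reported here. Alternatives changed the batch or replicate block, libraries fitted, scaling, pseudocount, low-value filter, test, score, window and libraries left out.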

Additional observations from a re-analysis of the deposited data

Results flagged for a closer look

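Ptgir, the prostacyclin receptor, had opposite LPS changes in the genotypes. LPS minus untreated was 0.56 log2 in WT A and 0.09 in WT B, and -0.01 in KO A and -0.06 in KO B, so that the mean change was lower in the KO than in the WT, at -0.359. Both WT mice were above 0 and both KO mice below it. The difference was not tested, since the rule used 3 of the 4 values, and the largest of them comes from the WT A untreated library, which stands apart.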

How the results depend on the processing

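The choice of members depended most on the LPS window. With WT A also held to it, 36 of the 80 were chosen again, and with a window of 0.3, 41. The mean of the 6 differences as the score kept 61, centring on the median gene 70, log2(CPM + 1) 76 and a mean LPS level of 3 or more 76. Leaving out each mouse in turn from the score kept 66 to 74. Under the alternatives at most 95 of all 9614 genes were called between genotypes under LPS and 146 under LPS+Dex, both without WT B. A count of 0 among 80 members is therefore no result about them. The count of members called between genotypes was 0 under LPS and LPS+Dex under every alternative, leaving out each library in turn included. In untreated cells it was 0 to 34 over the libraries left out, and 34 only without WT B, where WT A is the lone WT library and is assumed to vary like the others. In that setting 3905 of all 9614 genes were called, so the 34 rest on the library that stands apart. Under the same setting the KO minus WT difference of Arl4c in untreated cells turned from above to below 0, at -0.27, and without KO A it was -0.009. The batch block moved the members with an unadjusted p under 0.05 to 20 under LPS and 20 under LPS+Dex, with all genes at 19.1% and 23.8%. It called 0 members, beside 12 and 48 of all genes. With the mouse as a replicate block in a fit of 12 libraries, 0 members were called in either treatment, beside 52 and 103 of all genes. The smallest adjusted p of a member was that of Nr1d1 (0.0721 and 0.0751, limma). Without the replicate block 9 instead of 10 classic glucocorticoid-induced genes were called higher. Letters pair different animals, and the deviations of WT and KO mice of 1 letter from their group means correlated at 0.44 to 0.76 across genes. The untreated comparison has 2 libraries against 2, and its count of 0 says nothing about stability.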
